A study of Mus musculus with 31 samples.

Results

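The muscarinic acetylcholine receptors and the genes that make, carry and break down acetylcholine were examined in the caudate putamen (CPu) of female mice. The 9 genes were taken by symbol, from the 52636 gene identifiers of an expression table in TPM (transcript abundance scaled to gene length and to a fixed library sum), as the 5 muscarinic receptors Chrm1 to Chrm5 and the cholinergic genes Chat, Slc5a7, Slc18a3 and Ache. Each symbol matched a single identifier, and all 9 genes passed the filter on low values in every comparison.

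The 31 mice, aged 8 to 11 weeks, formed 4 groups on the C57BL/6NTac background. WT mice (n = 8) and mice heterozygous for a targeted deletion in Brd1 (Brd1+/-, n = 7) were administered vehicle, which was saline, and WT mice (n = 8) and Brd1+/- mice (n = 8) were administered the tricyclic antidepressant imipramine (IMN) at 10 mg/kg. All of them had been injected subcutaneously on consecutive days and put through the tail suspension, open field and forced swim tests before the right CPu was punched, so the vehicle groups carry handling and swim stress too. The deletion came from 1 targeted line and was not restricted to a cell type, and BRD1 is a chromatin scaffold protein of histone acetyltransferase complexes.

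Acetylcholine in the CPu comes mostly from cholinergic interneurons, large cells that are few in number and fire tonically. They synthesise the transmitter with choline acetyltransferase (Chat), take choline back up through the transporter encoded by Slc5a7 and load acetylcholine into vesicles through the transporter encoded by Slc18a3, while acetylcholinesterase (Ache) ends the signal in the extracellular space. Released acetylcholine acts on muscarinic receptors of opposite coupling: Chrm1, Chrm3 and Chrm5 couple to Gq and phospholipase C, whereas Chrm2 and Chrm4 couple to Gi/o and lower cyclic AMP. Striatal projection neurons express Chrm1 widely and Chrm4 mainly in those of the direct pathway, and Chrm2 serves as an autoreceptor on the cholinergic cells.

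Positions are those of GRCm38 (GENCODE M21). Chrm1 spans chr19:8663789-8683587, Chrm2 chr6:36388084-36528414, Chrm3 chr13:9875486-10360847 and Ache chr5:137287519-137294466. Chrm4 (chr2:91927249-91928688) and Chrm5 (chr2:112479171-112480769) are annotated as 1 exon each, and Slc5a7 lies at chr17:54273590-54299034. Slc18a3 is also a gene of 1 exon (chr14:32462438-32464850, minus strand) and sits inside Chat (chr14:32408203-32465989, same strand). Of the 8 Chat transcripts, 4 span Slc18a3, but 0 have an exon that overlaps it, so spliced Chat reads and Slc18a3 reads fall on different bases. Unspliced Chat RNA could still count toward Slc18a3. Chat also overlaps the antisense gene Gm2990, and other annotated genes overlap Chrm1, Chrm2, Chrm3 and Ache. Strand use in the counting was not given in the sources used here, so reads of overlapping genes may be mixed.

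The promoters of the 3 genes of the acetylcholine-releasing cell, whose levels varied together across mice, are shown from RefSeq (GRCm38.p6) as the 250 bases before the annotated start, 5′ to 3′ on the gene's strand. Capitals mark matches, on either strand, to TGACG, the core of the cAMP response element, or to the GC box GGGCGG, so that some are printed as the reverse complement.
Chat (chr14:32465910-32466159, minus strand): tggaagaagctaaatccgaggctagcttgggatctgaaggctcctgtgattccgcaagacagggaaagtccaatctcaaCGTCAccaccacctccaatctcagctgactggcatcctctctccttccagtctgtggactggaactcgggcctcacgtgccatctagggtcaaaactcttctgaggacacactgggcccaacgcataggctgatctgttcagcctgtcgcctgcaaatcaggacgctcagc
Slc18a3 (chr14:32464851-32465100, minus strand): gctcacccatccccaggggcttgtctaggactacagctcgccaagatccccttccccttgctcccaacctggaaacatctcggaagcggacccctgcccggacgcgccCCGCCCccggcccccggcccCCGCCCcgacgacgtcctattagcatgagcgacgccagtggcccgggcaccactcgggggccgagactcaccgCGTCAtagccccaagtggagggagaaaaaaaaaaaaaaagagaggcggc
Slc5a7 (chr17:54299035-54299284, minus strand): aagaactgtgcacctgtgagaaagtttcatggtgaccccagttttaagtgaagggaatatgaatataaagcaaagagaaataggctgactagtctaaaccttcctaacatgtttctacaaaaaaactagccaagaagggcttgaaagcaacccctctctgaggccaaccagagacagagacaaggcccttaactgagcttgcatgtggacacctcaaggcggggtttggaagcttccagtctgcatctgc
The Chat window held 1 TGACG match, 171 bases before the start, and the Slc18a3 window held 1 TGACG match and 2 GC boxes. Neither motif, nor the homeodomain core TAATTA, occurred in the Slc5a7 window. Among 27018 promoter windows of the same length, 17.9% held TGACG, 32.9% a GC box and 4.9% TAATTA. GC content was 54.8% for Chat, 66.0% for Slc18a3 and 45.6% for Slc5a7, against a median of 52.0% over all windows.

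Before the groups were compared, the labels and the tissue were checked. Brd1 was 22.5 ± 2.97 TPM in vehicle administered WT mice (SD, n = 8) against 13.4 ± 2.02 for Brd1+/- mice on vehicle (SD, n = 7), and 19.9 ± 2.67 and 12.8 ± 1.04 in the IMN groups (SD, n = 8 each). In WT vehicle mouse 7, 4 Y-linked genes summed to 26.8 TPM, against at most 0.188 in the other mice, which goes against its label as female. The summed TPM of 10 striatal projection neuron markers (among them Ppp1r1b, Drd1, Drd2, Adora2a, Penk, Tac1, Pde10a and Rgs9) ran from 5050 to 9819 in the other 3 groups, but from 276 to 10474 with a median of 3957 in WT vehicle mice. The summed TPM of 10 cortical neuron markers (among them Slc17a7, Neurod1, Neurod2, Neurod6, Tbr1, Emx1, Fezf2, Cux2 and Rtn4rl2) had a median of 1364 in WT vehicle mice, with a range of 9.48 to 1920. Its medians were 128 in Brd1+/- vehicle mice (16.5 to 232), 58.0 in WT IMN mice (8.82 to 1102) and 110 in Brd1+/- IMN mice (12.7 to 378). All WT vehicle mice other than 6 and 8 therefore stood apart from most of the remaining libraries, with WT IMN mice 5 and 8 nearest to them, and every contrast that uses WT vehicle mice carries this difference. Cortical markers including Neurod1, Emx1 and Rtn4rl2 were listed at 0 in at least 1 WT vehicle mouse, and no striatal marker was at 0 in any mouse. Fewer cells of a type and less RNA per cell cannot be told apart in these bulk punches.

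The 9 genes spanned a wide range of levels. Over all 31 mice Chrm4 was the highest at 89.9 ± 24.2 TPM (SD), followed by Ache at 53.0 ± 6.65 and Chrm1 at 49.3 ± 9.06. Chrm3 (17.0 ± 15.3), Slc5a7 (12.7 ± 5.24), Chat (12 ± 5.43), Slc18a3 (6.20 ± 2.67), Chrm2 (3.95 ± 2.06) and Chrm5 (1.55 ± 0.911) came below them, each as mean TPM ± SD. Chrm4 exceeded Ache in 29 of 31 mice. Neighbours whose means differed by less than the SD of either gene were Ache and Chrm1 (Ache higher in 17 of 31 mice), Chrm3 and Slc5a7 (Chrm3 higher in 12 of 31) and Slc5a7 and Chat (Slc5a7 higher in 24 of 31). This comparison ignores that both genes were read in the same mice. Slc5a7 was above Chat in 7 of 8 WT vehicle, 8 of 8 WT IMN, 4 of 7 Brd1+/- vehicle and 5 of 8 Brd1+/- IMN mice. Slc18a3 was higher than Chrm2 in 25 of 31 mice, with means that differed by less than the SD of Slc18a3. The order changed with the group: in WT vehicle mice Chrm3 (34 TPM) came before Slc5a7 and Chat, and Chrm2 (6.30) before Slc18a3 (4.18), whereas in the other 3 groups Chrm3 (10.0 to 12.7) came after Slc5a7 and Chat and Chrm2 after Slc18a3. Ache varied least between mice, with a coefficient of variation of 12.6%, and Chrm3 most, with single mice between 1.24 and 64.49 TPM.

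**Figure D1:**
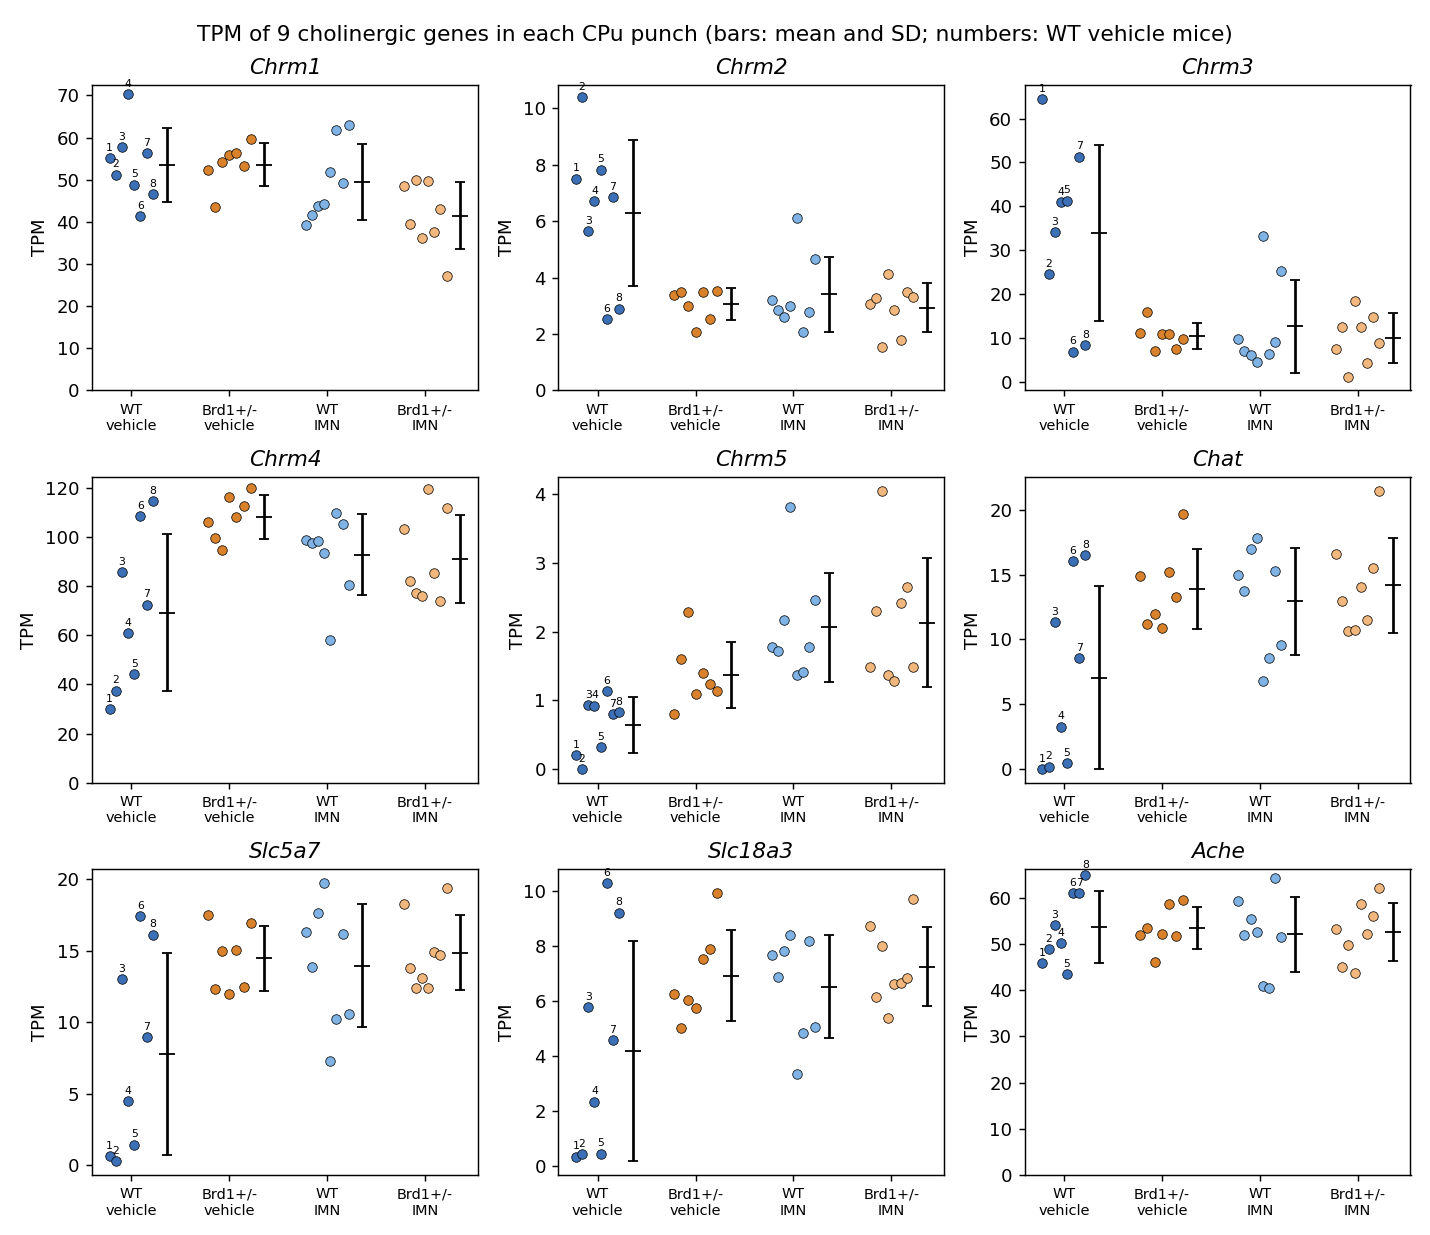
TPM of each of the 9 genes (vertical axes) in each mouse, by group, with the mean and SD as black bars and mouse numbers beside the WT vehicle points. Chat, Slc5a7 and Slc18a3 are near 0 in WT vehicle mice 1, 2 and 5, while mice 6 and 8 lie within or near the range of the other groups.

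Among the Gi/o-coupled receptors, Chrm4 had the higher level in Brd1+/- mice when both genotypes received vehicle. It ranged from 29.98 to 114.78 TPM with a median of 66.8 in WT vehicle mice and from 94.88 to 120.05 with a median of 108 in Brd1+/- vehicle mice. WT vehicle mice 6 (108.7 TPM) and 8 (114.78 TPM) fell within the Brd1+/- range and the other 6 below it. The log2 fold change was 0.78 (SE 0.25, limma adjusted p = 0.0648). Chrm2 went the other way, with a range of 2.52 to 10.39 TPM and a median of 6.78 in WT vehicle mice against 2.09 to 3.52 and a median of 3.37 in Brd1+/- vehicle mice. All WT mice but 6 and 8 lay above every Brd1+/- mouse, and the log2 fold change was -0.76 (SE 0.22, limma adjusted p = 0.0566).

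Among the Gq-coupled receptors, Chrm3 differed most. In WT vehicle mice 1 to 8 its level was 64.49, 24.61, 34.18, 41.03, 41.29, 6.91, 51.32 and 8.42 TPM, and in Brd1+/- vehicle mice it ranged from 7.13 to 15.84 with a median of 10.9. Mice 6 and 8 were again the ones at the level of the Brd1+/- group. The log2 fold change was -1.34 (SE 0.41, limma adjusted p = 0.0589). Chrm5, the scarcest receptor, ranged from 0 to 1.13 TPM with a median of 0.807 in WT vehicle mice and from 0.80 to 2.29 with a median of 1.24 in Brd1+/- vehicle mice. Of the 7 Brd1+/- mice, 5 lay above all WT mice, and the log2 fold change was 0.55 (SE 0.17, limma adjusted p = 0.0603). Chrm1, the main Gq-coupled receptor of the projection neurons, had near-equal means, 53.4 ± 8.73 TPM for the WT group (SD, n = 8) against 53.6 ± 5.06 for the Brd1+/- group (SD, n = 7), with a log2 fold change of 0.01 (SE 0.10, limma adjusted p = 0.94).

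The genes of the acetylcholine-releasing cell were higher in vehicle administered Brd1+/- mice by mean, but did not pass the threshold. Chat was 0, 0.17, 11.35, 3.26, 0.46, 16.08, 8.56 and 16.55 TPM in WT vehicle mice 1 to 8, and 10.91 to 19.72 with a median of 13.3 in Brd1+/- vehicle mice. Slc5a7 read 0.62, 0.29, 13.0, 4.45, 1.43, 17.45, 8.95 and 16.14 TPM in the same WT mice, and 12 to 17.53 with a median of 15.0 in Brd1+/- vehicle mice. Slc18a3 followed with 0.34, 0.43, 5.78, 2.34, 0.45, 10.29, 4.58 and 9.22 TPM, and 5.03 to 9.93 with a median of 6.25 in Brd1+/- vehicle mice. All 3 transcripts were near 0 in mice 1, 2 and 5, intermediate in mice 4 and 7 and at or within the Brd1+/- level in mice 3, 6 and 8. Mouse 3 lay within the Brd1+/- range for all of them although its cortical marker mean (4.70 on the log2 scale) was, unlike that of mice 6 and 8 (0.66 and 0.75), above every Brd1+/- vehicle mouse. The log2 fold changes were 1.63 for Chat (SE 0.62, limma adjusted p = 0.0944), 1.41 for Slc5a7 (SE 0.54, adjusted p = 0.0983) and 1.05 for Slc18a3 (SE 0.46, adjusted p = 0.135). These values depend on the pseudocount, and with 0.1 in place of 1 they were 2.48 for Chat, 1.85 for Slc5a7 and 1.56 for Slc18a3, still not past p under 0.01. Ache, which cells other than the cholinergic interneurons also express, was 53.7 ± 7.87 TPM (SD, n = 8) and 53.4 ± 4.54 (SD, n = 7), with a log2 fold change of 0.00 (SE 0.09).

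Thus 4 of the 9 genes passed p under 0.01 in this contrast, Chrm4 and Chrm5 higher and Chrm2 and Chrm3 lower in Brd1+/- mice, and 0 passed a false discovery rate (FDR) of 5%. Of all 23200 genes tested, 13.6% passed p under 0.01, 1.47% higher and 12.1% lower, and 0 passed the FDR in limma, with 7168 at an unadjusted p under 0.05. The median log2 fold change was 1.23 for the 4 cholinergic genes and 0.01 for the 5 receptors, beside -0.13 for all genes tested. Scaling by median of ratios moved that all-gene median to 0.00 and left the same 4 receptors called, at -0.60 for Chrm2, -1.16 for Chrm3, 0.96 for Chrm4 and 0.61 for Chrm5. With a pseudocount of 0.1 Chrm5 was 1.28 and no longer passed. With all 4 groups in one fit 7 of the 9 genes passed the FDR, from Chrm4 (limma adjusted p = 0.0121) to Slc18a3 (0.0364), as did 4963 of all 25394 genes tested in it, and Chrm1 and Ache did not. Without WT vehicle mouse 7, Chrm2, Chrm4 and Chrm5 still passed and Chrm3 did not (log2 fold change -1.21, limma adjusted p = 0.104). Over the 15 fits that each left out a mouse, the call of Chrm4 was lost in 9, that of Chrm5 in 4, that of Chrm3 in 3 and that of Chrm2 in 0.

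The marker levels moved with these differences. All 10 cortical neuron markers had a log2 fold change below 0 in this contrast (median -2.05, 2 passing p under 0.01), and all 10 striatal projection neuron markers one above 0 (median 1.63, 1 passing). Adding the cortical neuron marker mean as a covariate gave log2 fold changes of -0.30 for Chrm2, -0.48 for Chrm3, 0.31 for Chrm4 and 0.41 for Chrm5, and none of the 9 genes passed. With the striatal marker mean in its place they were -0.36, -0.96, 0.28 and 0.25, and again 0 of 9 passed. Chat went from 1.63 to 0.52 and 0.35 under those covariates. Genotype and these marker levels cannot be told apart in this contrast. Among the other marker lists, 3 of 8 GABAergic interneuron markers (Pvalb, Sst and Npy) were called lower, while Th (0.60), Nos1 (0.38) and Lhx6 (0.004) had estimates above 0. Of the astrocyte, oligodendrocyte, microglia, endothelium, erythrocyte and choroid plexus markers, 0 passed. With median-of-ratios scaling, 5 of 8 microglia markers passed as higher and 1 GABAergic interneuron marker as lower, where 894 of 23200 genes were called higher and 1240 lower.

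**Figure D2:**
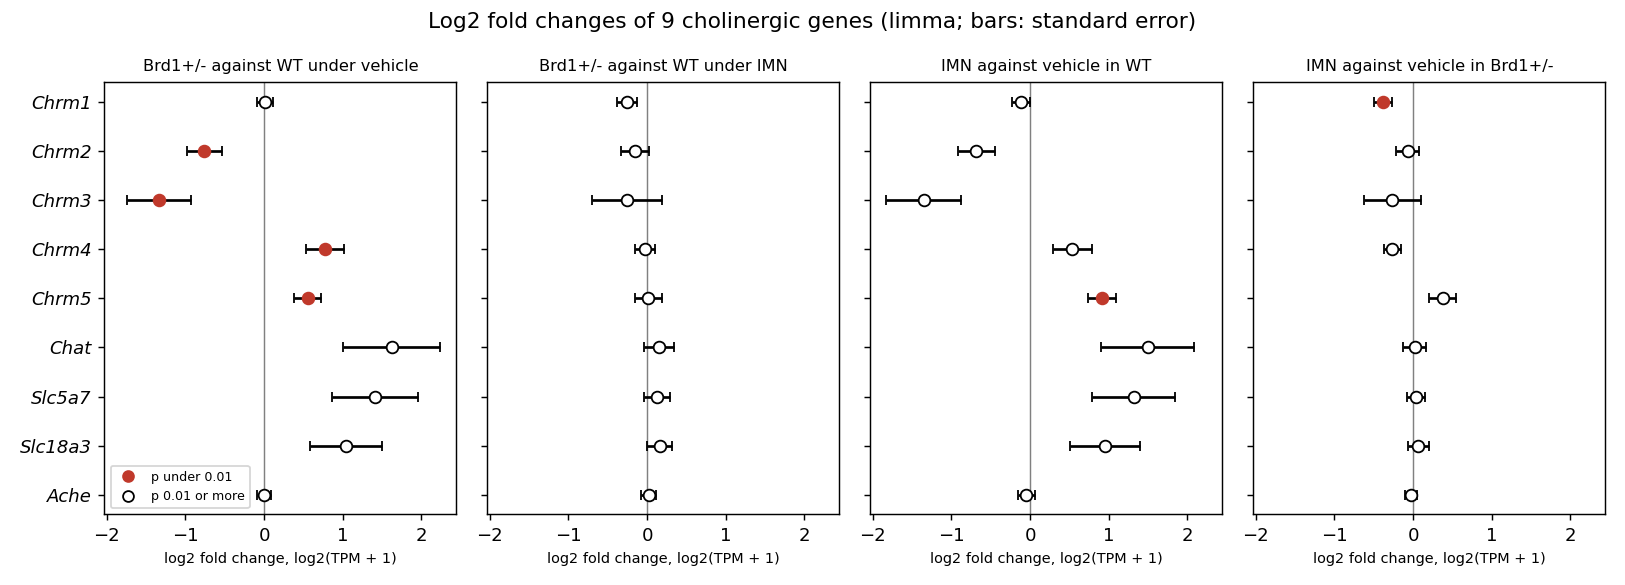
Log2 fold changes on the log2(TPM + 1) scale (horizontal axes) with standard errors for the 9 genes in 4 comparisons, filled where p is under 0.01. The 2 panels that use WT vehicle mice show Chrm2 and Chrm3 left of 0 and Chrm4, Chrm5, Chat, Slc5a7 and Slc18a3 right of it, and these 7 genes lie nearer to 0 in the other panels, where Chrm1 is the gene called (-0.38 for IMN in Brd1+/- mice).

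Under IMN no genotype difference passed the threshold for any of the 9 genes. Chrm4 was 92.9 ± 16.5 TPM in WT and 91.3 ± 17.9 in Brd1+/- mice, Chrm3 was 12.7 ± 10.6 and 10.0 ± 5.68, and Chat was 13.0 ± 4.13 and 14.2 ± 3.66 (SD, n = 8 each). Log2 fold changes ran from -0.25 for Chrm1 (SE 0.13) and Chrm3 (SE 0.44) to 0.16 for Slc18a3 (SE 0.16). In limma 0 of 9 passed p under 0.01 and 0 passed an unadjusted p under 0.05, against 0.703% of 23339 genes at p under 0.01 (0.189% higher and 0.514% lower). Brd1 itself was the 1 gene past an FDR of 5% here, or 0.00428% of genes. The adjusted p of each of the 9 genes was at least 0.998 in limma. The standard errors leave room for sizeable differences in Chrm3, whose WT values reached 33.21 TPM in mouse 5 and 25.3 in mouse 8, the WT IMN mice with the highest cortical marker means.

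In WT mice, the IMN and vehicle groups did not overlap in Chrm5. WT vehicle mice 1 to 8 read 0.20, 0, 0.93, 0.92, 0.31, 1.13, 0.80 and 0.82 TPM, and WT IMN mice 1 to 8 read 1.78, 1.72, 2.17, 3.82, 1.36, 1.41, 1.77 and 2.46. All 8 IMN mice lay above all 8 vehicle mice, which held for 0.0297% of 23579 genes in this direction, 0.115% in the other and 0.144% in either. Vehicle mice 6 and 8, whose cortical marker means were the lowest of their group, were also below every IMN mouse. The ratio of means was 3.24, and the log2 fold change was 0.91 (SE 0.17, limma adjusted p = 0.132), which ranked it at place 11 of all genes. It stayed at p under 0.01 with the cortical (0.73, limma adjusted p = 0.62) or striatal (0.64, adjusted p = 0.563) marker mean as a covariate, without WT vehicle mouse 7 (0.94, adjusted p = 0.181) and in all 16 fits that left out a mouse. With a pseudocount of 0.1 its log2 fold change was 1.83. Its adjusted p ran from 0.0187 with all 4 groups in one fit to 0.62 over the 9 alternatives.

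The remaining 8 genes did not pass in this contrast. Chrm2 (log2 fold change -0.68, SE 0.24, limma adjusted p = 0.143), Chrm3 (-1.35, SE 0.48, adjusted p = 0.147), Chrm4 (0.54, SE 0.25, adjusted p = 0.208) and Chat (1.49, SE 0.59, adjusted p = 0.165) had estimates of the same sign as in the genotype contrast under vehicle, and both contrasts share the WT vehicle mice. Of all genes tested, 6.95% passed p under 0.01, 1.35% higher and 5.60% lower, and 0.00424% passed an FDR of 5%. Leaving out WT vehicle mouse 6 or mouse 8 raised the count among the 9 from 1 to 5, and leaving out WT IMN mouse 5 or mouse 8 raised it to 3. The share over all genes moved with it, from 6.95% to 13.6% without vehicle mouse 6, 15.3% without vehicle mouse 8, 10.3% without IMN mouse 5 and 7.81% without IMN mouse 8. The summed striatal markers had medians of 3957 TPM under vehicle and 8721 under IMN, and the cortical ones 1364 and 58.0. Markers of other cell types also passed p under 0.01 in this contrast. Hba-a1 and Hba-a2 were lower, with all 5 erythrocyte markers below 0 (median -0.54), as were Cldn5 of the endothelium, Pvalb of GABAergic interneurons and the cortical marker Emx1, and Kl of the choroid plexus was higher. The other lists were mixed in sign, apart from the cortical one. Estimates were above 0 for 5 of 8 endothelial, 3 of 8 GABAergic interneuron and 2 of 3 tested choroid plexus and ependyma markers. With median-of-ratios scaling, 0 erythrocyte and 0 endothelium markers passed. There 4 of 8 microglia markers were called higher, with all 8 above 0, where 670 of 23579 genes were called higher and 747 lower. The part of these other lists in the Chrm5 difference was not tested.

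In Brd1+/- mice IMN was accompanied by less Chrm1. Its level ran from 43.43 to 59.58 TPM with a median of 54.3 under vehicle and from 27.2 to 49.92 with a median of 41.2 under IMN, and 5 of 8 IMN mice lay below all vehicle mice. The log2 fold change was -0.38 (SE 0.11, limma adjusted p = 0.455). It kept an estimate of -0.38 with either marker mean as a covariate, which stayed past p under 0.01 for the cortical one (limma adjusted p = 0.41) but not for the striatal one (adjusted p = 0.701). Without Brd1+/- vehicle mouse 7 it was -0.36 (limma adjusted p = 0.585) and no longer passed, the only such case among the 15 fits that left out a mouse. The cortical marker medians were 128 and 110 summed TPM in these groups and the striatal ones 9434 and 7883. In this contrast all 10 striatal markers had estimates below 0 (median -0.19), with Drd1 called lower (-0.19, SE 0.06), as was the endothelial marker Kdr (-0.35, SE 0.11). Of 8 endothelial markers, 2 had estimates above 0, and the part of the endothelial markers in the Chrm1 difference was not tested. Of 23020 genes, 1.83% passed, 0.869% higher and 0.964% lower, and 1 of the 9 genes did. Chrm5 was again higher under IMN, at 2.13 ± 0.941 TPM (SD, n = 8) against 1.37 ± 0.480 (SD, n = 7), with 4 of 8 IMN mice above all vehicle mice, but its log2 fold change of 0.38 (SE 0.17, limma adjusted p = 0.684) did not pass. Chrm4 was 0.26 lower on the log2 scale (SE 0.10, limma adjusted p = 0.639), and Chat, Slc5a7, Slc18a3 and Ache were within 0.07 of 0.

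The interaction of genotype and IMN, the difference between the IMN effects of the genotypes, passed p under 0.01 for Chrm4 alone (-0.80, SE 0.29, limma adjusted p = 0.261). Over all 25394 genes 3.74% passed, 2.97% with a positive and 0.780% with a negative sign. The Chrm4 estimate was -0.43 with the cortical and -0.27 with the striatal marker mean as a covariate, neither past p under 0.01 (adjusted p = 0.855 and 0.998), and it lost p under 0.01 in 21 of the 31 fits without a mouse. For Chrm5 the interaction was -0.54 (SE 0.25, limma adjusted p = 0.294), so its IMN effects were not shown to differ between genotypes. Chat had -1.47 (SE 0.66, adjusted p = 0.281) and Chrm1 -0.27 (SE 0.17, adjusted p = 0.421).

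The make-up of the muscarinic receptor pool is read from the share of each receptor in the summed TPM of the 5, a ratio within each library, given as a description. The sum was 164 ± 22.3 TPM in WT vehicle, 177 ± 11.6 in Brd1+/- vehicle, 160 ± 12.9 in WT IMN and 148 ± 19.0 in Brd1+/- IMN mice (SD). Chrm4 took 61.2 ± 1.59% of it in Brd1+/- vehicle, 58.0 ± 10.1% in WT IMN and 61.5 ± 6.30% in Brd1+/- IMN mice, but 41.7 ± 17.4% in WT vehicle mice, where it ran from 19.1 to 67.7% (SD). Chrm3 took 21.0 ± 12.3% in WT vehicle mice and 5.96 ± 1.83%, 7.92 ± 6.75% and 6.82 ± 4.13% in the others. The Gi/o-coupled pair thus made up 45.7 ± 15.8% of the pool in WT vehicle mice and 63.0 ± 1.38% in Brd1+/- vehicle mice, where mice differed little. Chrm1 took 28.2 to 33.0% by group mean, with single mice between 25.7 and 41.4% in the WT vehicle and between 17.8 and 37.3% in the Brd1+/- IMN group.

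**Figure D3:**
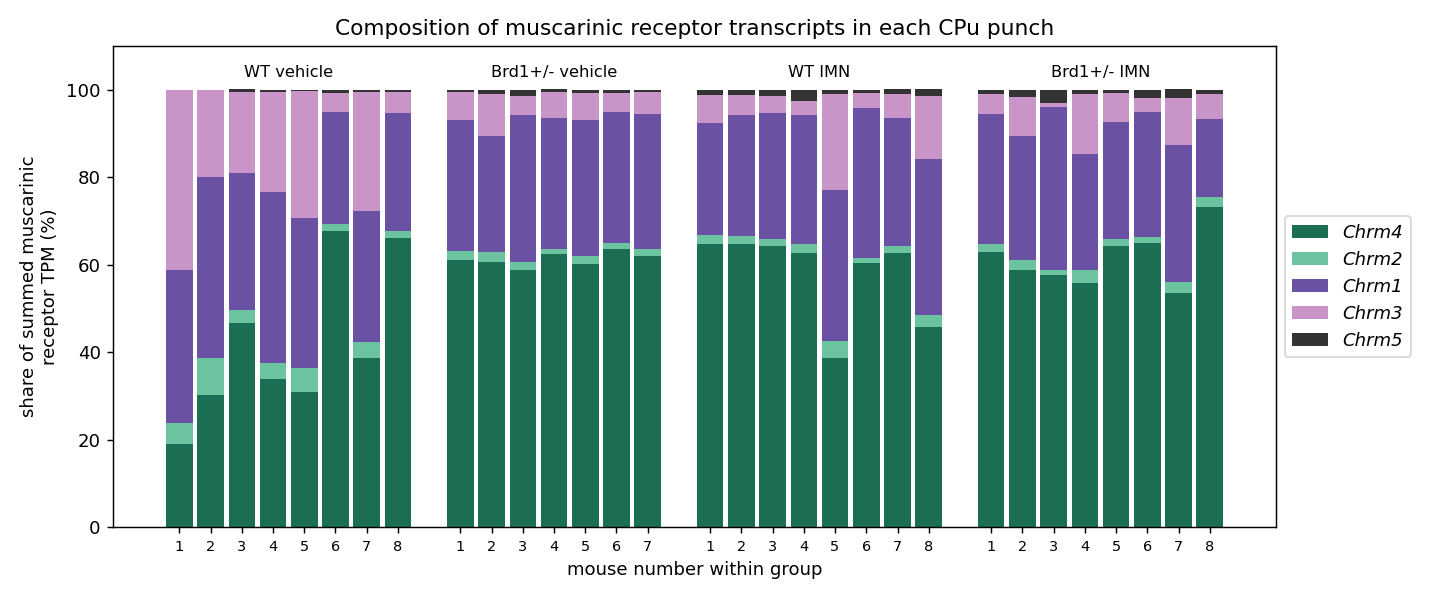
Share of each muscarinic receptor in the summed TPM of the 5 (vertical axis, percent), with 1 bar for each mouse, ordered by group and mouse number. The Chrm4 share is 58.7 to 63.5% in all Brd1+/- vehicle mice but 19.1 to 67.7% in WT vehicle mice, where Chrm3 fills much of the difference.

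Transcripts of the cholinergic interneuron kept a steady ratio to each other. Chat was 0.958 ± 0.128 of Slc5a7 in Brd1+/- vehicle, 0.924 ± 0.0465 in WT IMN and 0.949 ± 0.136 in Brd1+/- IMN mice, and 2.02 ± 0.229, 1.97 ± 0.136 and 1.96 ± 0.310 times Slc18a3 (SD). In WT vehicle mice, where several values were near 0, these ratios were 0.676 ± 0.358 and 1.25 ± 0.723 (SD). Over the 31 mice Pearson's r of log2(TPM + 1) was 0.99 for Chat and Slc5a7 (Spearman's rho 0.939), 0.983 for Chat and Slc18a3 (rho 0.906) and 0.973 for Slc5a7 and Slc18a3 (rho 0.86), with a permutation p of 1e-05 for each r and rho, the smallest that 100000 permutations can give (adjusted over 16 pairs, 3.2e-05 for r and 4e-05 for rho). Without the 2 mice farthest from the median they were 0.982, 0.969 and 0.957. Without the 8 WT vehicle mice they were 0.914, 0.891 and 0.833 over 23 mice, and within single groups they ran from 0.464 to 0.993. Ache followed Chat less closely (r = 0.508, rho = 0.714, permutation p = 0.00285 and 3e-05, adjusted p = 0.00456 and 9.6e-05, r without the 2 farthest mice 0.546), at 0.679 to 0.905 within groups.

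Chrm2 and Chrm3 also varied together across mice, with r = 0.895 and rho = 0.877 (permutation p = 1e-05 each, adjusted 3.2e-05 and 4e-05), 0.939 without the 2 farthest mice and 0.864 without the WT vehicle mice, though 0.34 within Brd1+/- vehicle mice. Chrm2 ran against Chrm4 (r = -0.78, rho = -0.598, permutation p = 1e-05 and 0.00056, adjusted p = 3.2e-05 and 0.00128, r = -0.669 without the 2 farthest mice). That relation was weaker without the WT vehicle mice (r = -0.401) and was 0.0784 within Brd1+/- IMN mice.

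Against the marker means, 6 of the 9 genes had strong relations, often to both lists with opposite sign. Chat (r = 0.89, rho = 0.823), Slc5a7 (0.921, 0.739), Slc18a3 (0.865, 0.808) and Chrm4 (0.85, 0.90) followed the striatal projection neuron marker mean over the 31 mice, with r of 0.926, 0.919, 0.906 and 0.913 without the 2 farthest mice. Without the WT vehicle mice their r with it was 0.75, 0.682, 0.674 and 0.896. Chrm2 (r = 0.857, rho = 0.752) and Chrm3 (0.862, 0.823) followed the cortical neuron marker mean, with r of 0.819 and 0.859 without the 2 farthest mice and 0.605 and 0.727 without the WT vehicle mice. The cortical mean was related to Chat (r = -0.766, rho = -0.779), Slc5a7 (-0.777, -0.805), Slc18a3 (-0.815, -0.864) and Chrm4 (-0.789, -0.692), with r of -0.706, -0.733, -0.772 and -0.742 without the 2 farthest mice. Without the WT vehicle mice these r were -0.654, -0.746, -0.746 and -0.579. Chrm2 had r = -0.754 and rho = -0.549 with the striatal mean (-0.735 without the 2 farthest, -0.303 without the WT vehicle mice). Apart from the rho of Chrm4 with the cortical (adjusted permutation p = 9e-05) and of Chrm2 with the striatal mean (0.00244), each of these r and rho over the 31 mice had a permutation p of 1e-05, the smallest possible, adjusted over 18 relations to 1.64e-05 and 2e-05. Chrm3 had r = -0.521 and rho = -0.558 with the striatal mean (adjusted permutation p = 0.00283 and 0.00185), with r = -0.65 without the 2 farthest mice and -0.25 without the WT vehicle mice. Within groups the r of Chrm4 with the striatal mean lay between 0.796 and 0.957, whereas that of Chrm3 with the cortical mean was 0.917 in WT vehicle, 0.923 in WT IMN and 0.645 in Brd1+/- IMN mice but 0.0757 in Brd1+/- vehicle mice. For Chrm2 with the cortical mean it was 0.964 and 0.854 in the WT vehicle and WT IMN groups, but 0.47 in Brd1+/- IMN and -0.11 in Brd1+/- vehicle mice. Chrm5 had r = 0.639 with the striatal mean (permutation p = 5e-05, adjusted p = 7.5e-05), but rho was 0.118 (permutation p = 0.527, adjusted p = 0.527), r was 0.344 without the 2 farthest mice and -0.349 without the WT vehicle mice, so that relation rests on a few WT vehicle mice. With the cortical mean Chrm5 had r = -0.524 and rho = -0.338 (adjusted permutation p = 0.00283 and 0.0729), with r = -0.417 without the 2 farthest mice and -0.0657 without the WT vehicle mice. Chrm1 followed neither mean closely, with r = 0.401 and rho = 0.343 for the cortical (adjusted permutation p = 0.0289 and 0.0716) and r = -0.199 and rho = -0.16 for the striatal one (0.259 and 0.414). Ache had r = -0.443 and rho = -0.5 with the cortical (adjusted permutation p = 0.0152 and 0.00582) and r = 0.33 and rho = 0.612 with the striatal mean (0.0705 and 0.000671). Without the 2 farthest mice these r were 0.324 and -0.273 for Chrm1 and -0.441 and 0.429 for Ache. For Ache and the striatal mean, r was 0.61 without the WT vehicle mice and 0.621 to 0.686 within groups. Within groups the r of Chrm1 ran from -0.417 (Brd1+/- vehicle) to 0.693 (WT vehicle) with the cortical mean. With the striatal mean it ran from -0.35 (WT IMN) to 0.766 (Brd1+/- vehicle).

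**Figure D4:**
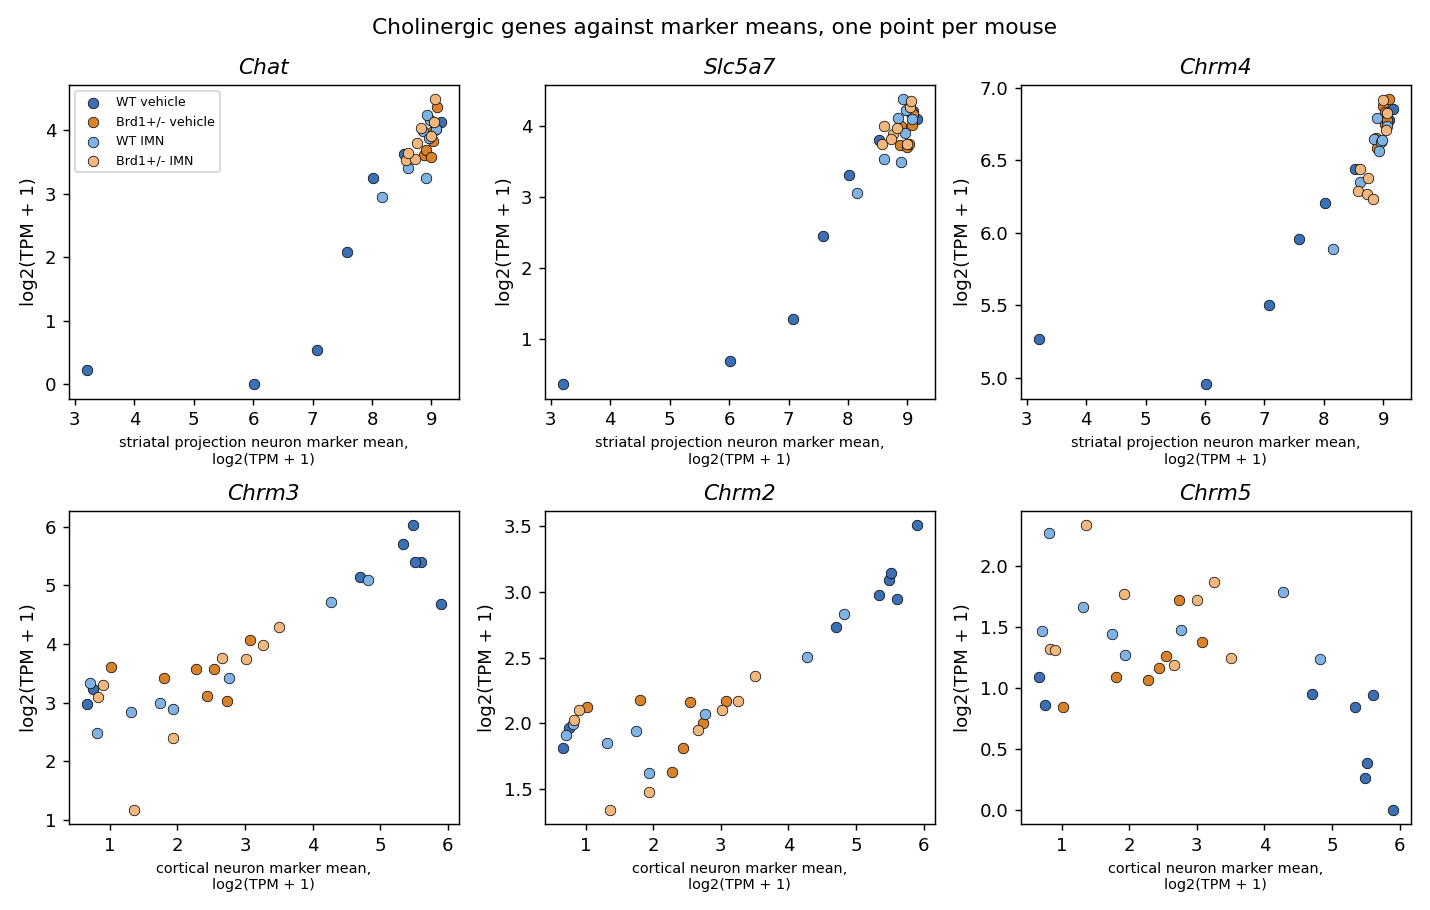
Log2(TPM + 1) of 6 of the genes (vertical axes) against the mean log2(TPM + 1) of striatal projection neuron markers (top row) or cortical neuron markers (bottom row), 1 point for each mouse, coloured by group. Chat, Slc5a7 and Chrm4 climb with the striatal mean (r of 0.89, 0.921 and 0.85), Chrm3 and Chrm2 with the cortical mean (0.862 and 0.857), and the WT IMN points of Chrm5 lie above the WT vehicle points.

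The genes most like each member were sought among 17350 other genes with a mean of at least 1 TPM, by Pearson's r of log2(TPM + 1) over the 31 mice. For Chat they included Slc10a4 (0.982), a transporter-like protein of cholinergic vesicles, and Tacr1 (0.967), the substance P receptor. Slc10a4 also led for Slc5a7 (0.984) and Slc18a3 (0.980), with Tacr1 (0.983) and Ecel1 (0.973) next for Slc5a7, and C130060K24Rik (0.960) was also among the likest for Slc18a3. Chrm4 was most like Mgat5b (0.981), Cacna2d3 (0.959) and Fbxl16 (0.957). Chrm3 was nearest to Atrnl1 (0.958), Lrrc75a (0.948) and Rph3a (0.940), and Chrm2 to Prickle1 (0.960), Cav2 (0.953) and Nrip3 (0.953). For Chrm5 the list opened with Oprm1 (0.866), the mu opioid receptor, then Pde1c (0.863) and Npas2 (0.861), a clock transcription factor. Chrm1 and Ache had no near match, with best values of 0.670 for Yipf1 and 0.684 for Fam20c. These values are descriptions over mice that share the marker differences given above.

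Other genes of cholinergic signalling were read from 7 lists with 60 genes in all. In the genotype contrast under vehicle, where 1.47% of all genes were called higher and 12.1% lower, 1 of 9 tested nicotinic receptor subunits fell in Brd1+/- mice, a share near that background. It was Chrna4, which forms the main brain nicotinic receptor with Chrnb2. It went from 20.2 ± 14.8 TPM (SD, n = 8) to 4.40 ± 0.909 (SD, n = 7), a log2 fold change of -1.61 (SE 0.42, limma adjusted p = 0.0556), while Chrnb2 was 17.9 ± 2.84 and 15.1 ± 0.813 TPM (log2 fold change -0.22, adjusted p = 0.114). Of 8 chaperones and modulators of nicotinic receptors, 3 fell, Ly6h (-0.81, SE 0.19), Ly6e (-1.05, SE 0.33) and Lypd6b (-1.41, SE 0.46), with limma adjusted p of 0.0556, 0.0618 and 0.0663. With median-of-ratios scaling this list had 1 higher and 2 lower calls, where 894 of 23200 genes were called higher and 1240 lower. The remaining 7 of the 16 subunits were below the filter. The median log2 fold change was -0.22 for the subunits and -0.40 for the modulators, beside -0.13 over all genes.

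Downstream of the receptors, against the same background of 1.47% higher and 12.1% lower, 1 of 6 genes of Gq coupling rose, the phospholipase Plcb2 (0.62, SE 0.18, limma adjusted p = 0.0556), and 1 fell, the G protein subunit Gna11 (-0.22, SE 0.08, adjusted p = 0.0731). Of 4 Gi/o subunit genes, Gnai1 fell (-0.89, SE 0.25, adjusted p = 0.0556), from 76.6 ± 27.1 to 38.7 ± 9.84 TPM. Of 6 tested potassium channel genes under muscarinic control, Kcnj3 (-1.14, SE 0.36, adjusted p = 0.0628) and Kcnj9 (-1.34, SE 0.35, adjusted p = 0.0556), which encode G protein-gated inward rectifier subunits, fell. Kcnj9 was 16.21 to 117.93 TPM in WT vehicle mice with a median of 65.2, and 14.68 to 21.01 with a median of 19.7 in Brd1+/- vehicle mice. With median-of-ratios scaling the Gq genes had 1 higher and 0 lower calls, and the potassium channels 1 higher and 2 lower, with 894 of 23200 genes called higher and 1240 lower. Apart from leaving out mice, Gna11 passed p under 0.01 in 2 of 9 alternative settings, and the nicotinic modulator Lypd6b in 5 of 9. No gene of choline supply and cholinesterase anchoring passed among 8 tested, with Prima1, the membrane anchor of Ache, at 1.22 (SE 0.50, adjusted p = 0.116).

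Of 9 genes that mark or specify forebrain cholinergic neurons, 1 rose, against 1.47% of all genes, the transcription factor Nkx2-1 (0.95, SE 0.31, limma adjusted p = 0.0686), and all 9 estimates were above 0 under both scalings. Their median log2 fold change was 0.95, beside -0.13 over all genes. Among those that did not pass were Isl1 (1.53, SE 0.59, limma adjusted p = 0.0987) and Slc10a4 (1.51, SE 0.58, adjusted p = 0.0974). Isl1 and Slc10a4 were each listed at 0 in 1 WT vehicle mouse. Under IMN 0 genes of the 7 lists passed between genotypes, and IMN in Brd1+/- mice also gave 0. IMN in WT mice gave 2, both lower (5.60% of all genes were called lower), the nicotinic modulators Lynx1 (-0.41, SE 0.11, limma adjusted p = 0.141) and Ly6e (-1.06, SE 0.36, adjusted p = 0.141). With median-of-ratios scaling the modulator list had 1 higher and 1 lower call there, where 670 of 23579 genes were called higher and 747 lower. The interaction passed for Kcnj9 (1.12, SE 0.40, adjusted p = 0.261) and Nkx2-1 (-1.03, SE 0.37, adjusted p = 0.261), as for 3.74% of all genes. Of the 10 list genes called between genotypes under vehicle, Ly6h (-0.40) and Kcnj9 (-0.52) kept their call once the cortical marker mean entered the fit, and Ly6h alone did so with the striatal one. Neither call for IMN in WT mice and neither interaction call passed with either covariate, where Kcnj9 went down to 0.42 and Nkx2-1 to -0.33 in the interaction. Apart from leaving out mice, Lynx1 (-0.41 to -0.26) and Ly6e (-1.08 to -0.31) each passed in 5 of 9 alternative settings for IMN in WT mice. Nkx2-1 passed in 5 of 9 under vehicle, and Nkx2-1 and Kcnj9 each in 4 of 8 in the interaction. Chrna4, Ly6h, Plcb2, Gnai1 and Kcnj9 kept their calls under vehicle in all 15 fits that left out a mouse. The calls of Lypd6b, Gna11 and Nkx2-1 were lost in 11 of those fits each, that of Kcnj3 in 10 and that of Ly6e in 8. For IMN in WT mice Ly6e was lost in 12 of 16 fits and Lynx1 in 0, and in the interaction Kcnj9 was lost in 25 and Nkx2-1 in 22 of 31.

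**Figure D5:**
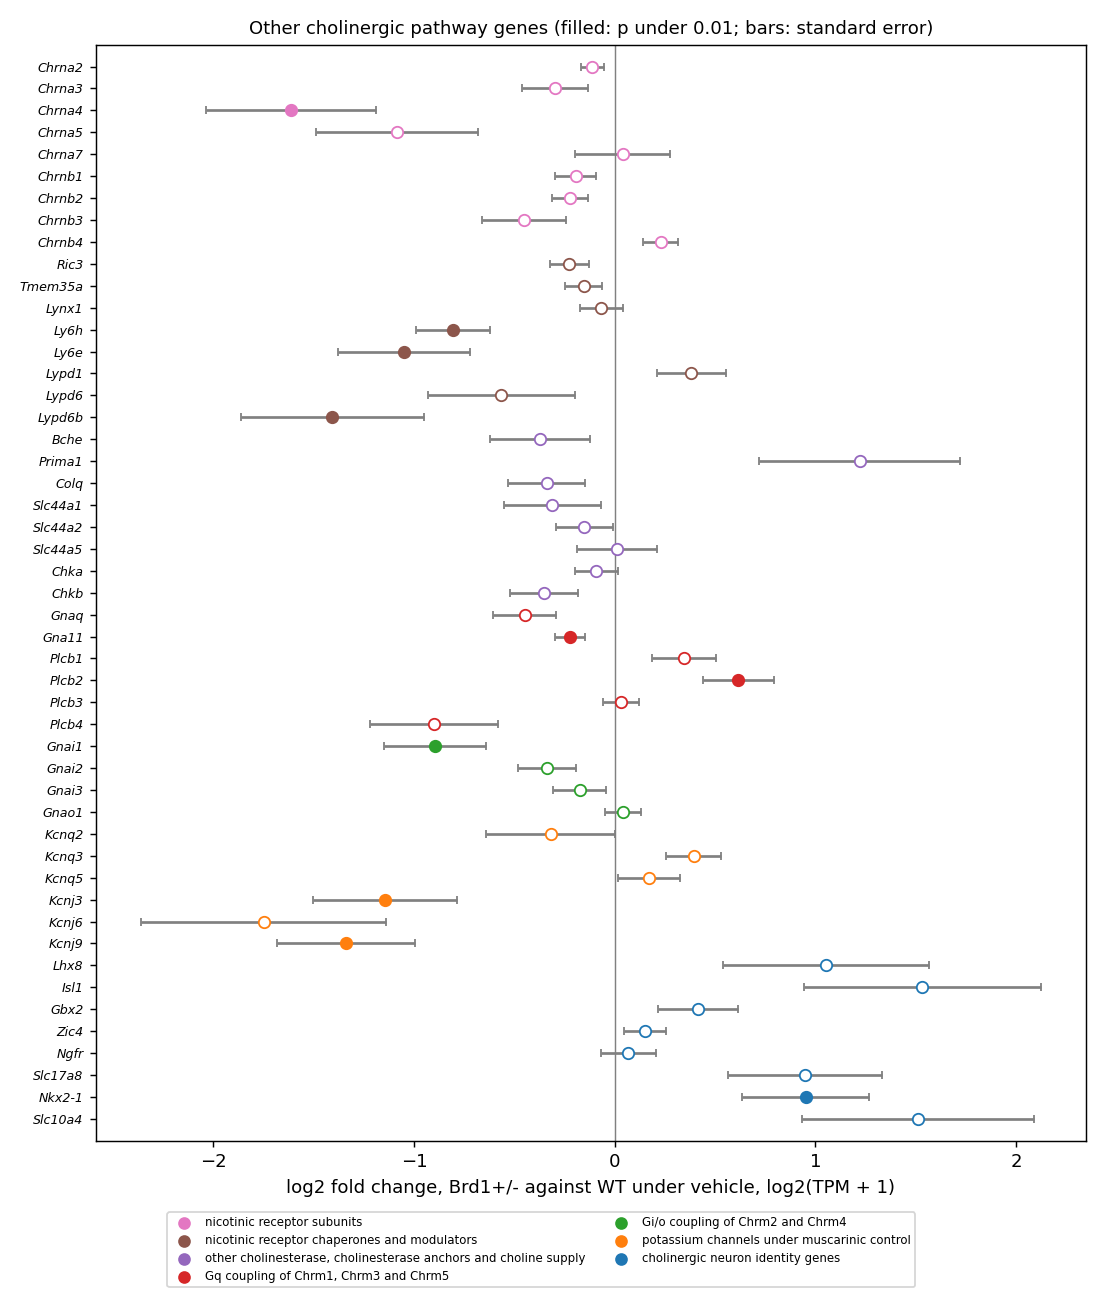
Log2 fold change (horizontal axis, log2(TPM + 1) scale) with standard error for tested genes of the 7 other cholinergic lists in vehicle administered Brd1+/- against WT mice, coloured by list and filled where p is under 0.01. Chrna4, Kcnj9 and Kcnj3 lie at -1.61, -1.34 and -1.14, and the cholinergic neuron identity genes plotted lie right of 0.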

How the data were processed

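RNA from the right CPu punches of 31 mice gave single-end BGISEQ-500 reads. Alignment by the authors used HISAT2 (version 2.1.0) and the GRCm38 build, quantification used StringTie (version 1.3.4), and the deposited values are TPM for 52636 Ensembl identifiers, of which 52489 had a symbol in GENCODE M21. Columns without a sample numbered 0. TPM is scaled to gene length and a fixed sum (999787 to 999918 per mouse), so the reads behind a value are not known beyond the minimum per library that the study's methods give, and no counting interval could be given. A count test was therefore replaced by limma (version 3.58.1, R 4.3.3) on log2(TPM + 1), with an intensity trend, for genes above 0.1 TPM in at least 7 mice. A fold change on this scale understates the change of low genes. Genotype was compared under vehicle and under IMN, IMN within each genotype, and their interaction was tested over all 4 groups. Nominal calls had p under 0.01, as in the study, and Benjamini-Hochberg FDR was set at 5%. P-values of correlations came from 100000 permutations (two-sided) in numpy 2.4.6 and scipy 1.17.1. The replicate numbers of the labels name mice and were not used as pairs. The limma fits were tested on simulated data, with independent normal values from the means and SDs of Brd1+/- vehicle mice in both groups. That setting lacks the wider spread of WT vehicle mice and the correlation between genes, so it cannot test the fits under these.

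Named genes were the 9 members, Brd1, up to 3 genes per list and direction with the smallest p under 0.01, the 3 genes most correlated with each member, and marker genes. A few genes that enter the lists and sums are not reported here by name. Chrnb2, Prima1 and Isl1 were named as pathway examples after their values were seen. Members and lists were chosen with earlier results of these data known. Alternatives were a pseudocount of 0.1, other filters (a mean of at least 1 TPM, or none), median-of-ratios scaling, no trend, all 4 groups in one fit, a replicate block, the cortical neuron or striatal marker mean as covariate, and leaving out each mouse. Correlations were also computed without the 8 WT vehicle mice, a choice made after seeing the data. Other marker lists covered astrocytes, oligodendrocytes, microglia, endothelium, erythrocytes, choroid plexus and ependyma, and GABAergic interneurons. Promoter sequences and windows came from RefSeq (GRCm38.p6), which held entries for 8 of the 9 genes.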

Additional observations from a re-analysis of the deposited data

Results flagged for a closer look

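Chrm5 in WT IMN mouse 4 read 3.82 TPM, far above the remaining 7 mice of its group. Its gap of 1.36 TPM to the next mouse was 0.552 of the group's range, past Dixon's critical value of 0.526 for 8 samples, and it was the sole such case among 36 group and gene pairs examined, where chance alone gives about 1 in 20. The log2 fold change of Chrm5 between IMN and vehicle in WT mice ran from 0.81 to 0.97 over the 16 fits that left out a mouse.

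The effect of IMN on Chrm4 differed between genotypes by -0.80 on the log2 scale in the interaction test (limma adjusted p = 0.261), with 0.54 in WT mice and -0.26 in Brd1+/- mice. The striatal marker sums moved in the same directions, from a median of 3957 to 8721 TPM in WT mice and from 9434 to 7883 in Brd1+/- mice, and with their mean as a covariate the interaction was -0.27.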

How the results depend on the processing

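Of the 9 genes, 4 passed p under 0.01 between genotypes under vehicle; the count became 3 with a pseudocount of 0.1 or a mean of at least 1 TPM (where Chrm5 was not fitted), 7 with all 4 groups in one fit, 7 with the replicate block, 0 with either marker mean as a covariate, and 2 to 7 when a mouse was left out (7 without WT vehicle mouse 6, 6 without mouse 8, and 2 without WT vehicle mouse 1 or 5 or Brd1+/- vehicle mouse 3 or 6). IMN in WT mice gave 1, which became 2 with a mean of at least 1 TPM, without the trend or with the block, 6 with all 4 groups in one fit and 1 to 5 without a mouse. IMN in Brd1+/- mice gave 1, which became 2 with the block, 0 with the striatal covariate and 0 to 2 without a mouse. The interaction gave 1, which became 3 with the block, 0 with no filter or with either covariate and 0 to 4 without a mouse (4 without WT vehicle mouse 6, 2 without WT vehicle mouse 8). Genotype under IMN gave 0 throughout. Over all genes, the share past p under 0.01 between genotypes under vehicle moved too, from 13.6% to 19.7% with all 4 groups in one fit, 17.9% with the block, 19.9% without WT vehicle mouse 6 and 22.4% without mouse 8. For IMN in WT mice the share moved from 6.95% to 13.5% with all 4 groups in one fit. In the interaction it moved from 3.74% to 11.1% with the block, 9.28% without WT vehicle mouse 6 and 10.2% without WT vehicle mouse 8. The cause of these shifts was not tested. Same-numbered mice did not deviate together (median correlation -0.0138 to 0.0917 between groups), so the replicate block pairs only numbers. Where a Brd1+/- vehicle group is compared, the block also drops each mouse 8, which has no partner there, so its values change both choices together.

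Signs reversed under the block for Chrm1 between genotypes under vehicle (-0.0114) and Chat (-0.0659) and Slc5a7 (-0.021) for IMN in Brd1+/- mice, with the same values when mouse 8 was dropped without a block, and for Ache in the interaction (-0.0547). With median-of-ratios scaling they reversed for Chrm4 between genotypes under IMN (0.0233), Chrm1 (0.0069) and Ache (0.0757) for IMN in WT mice, and Ache (-0.12) and Brd1 (-0.0189) in the interaction. With the cortical covariate they reversed for Ache between genotypes under vehicle (-0.13) and Chrm1 for IMN in WT mice (0.0209). With the striatal covariate they reversed for Ache under vehicle (-0.11), Chrm2 (0.0842), Chrm3 (0.0806) and Ache (0.0869) for IMN in Brd1+/- mice, and Slc18a3 in the interaction (0.0442 against -0.89 without it). Without a mouse, ranges crossing 0 were, under vehicle, -0.0359 to 0.0717 for Chrm1 and -0.0399 to 0.0411 for Ache. Between genotypes under IMN they were -0.41 to 0.0408 for Chrm3, -0.12 to 0.0157 for Chrm4, -0.0893 to 0.12 for Chrm5 and -0.0274 to 0.0658 for Ache. For IMN they were -0.0916 to 0.0017 for Ache in WT mice, and in Brd1+/- mice -0.13 to 0.0154 for Chrm2, -0.42 to 0.028 for Chrm3, -0.0659 to 0.10 for Chat, -0.021 to 0.0788 for Slc5a7 and -0.0612 to 0.0094 for Ache. For Ache in the interaction the range was -0.0281 to 0.0652. Pearson's r reversed with median-of-ratios scaling for Chrm1 with the striatal marker mean (0.0946), with Chrm2 (-0.0104) and with Chrm4 (0.174). Without the 8 WT vehicle mice it reversed for Chrm1 with the striatal mean (0.0247) and with Chrm4 (0.153), and for Chrm5 with the striatal mean (-0.349) and with Chrm4 (-0.47).

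Over all genes, 3153 passed between genotypes under vehicle, but 455 with the cortical and 343 with the striatal covariate and 5005 with all 4 groups in one fit. IMN in WT mice gave 1639, then 323, 301 and 3424. The interaction gave 951, then 255 and 132 with the covariates and 2788 with the block (2571 without WT vehicle mouse 8 and with no block). At an FDR of 5%, the 0 genes called between genotypes under vehicle became 1833 with a mean of at least 1 TPM, 4963 with all 4 groups in one fit, 3604 with the block, 4563 without WT vehicle mouse 6 and 5482 without WT vehicle mouse 8. Of the 9 genes, 2, 7, 6, 7 and 6 passed that FDR in these fits. For IMN in WT mice 5 of the 9 did with all 4 groups in one fit, as did 2291 of 25394 genes. Without WT vehicle mouse 6 or 8, 3 of the 9 did, as did 1176 and 2459 of 23391 genes. Median-of-ratios scaling moved the share of lower calls from 89.2% to 58.1% between genotypes under vehicle, from 73.2% to 53.8% under IMN and from 80.6% to 52.7% for IMN in WT mice, and the negative share of the interaction from 20.8% to 48.9%. The reads behind the low levels of Chrm5, Chat, Slc5a7 and Slc18a3 are unknown.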
